A study of Homo sapiens with 9 samples.

Results

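The 10 small RNA genes examined are classical targets of the zinc finger protein ZNF143: RN7SK, RMRP, RPPH1, RNU6-1, RNU4-2, RNU5A-1, RNU11, RNU12, RNU4ATAC and RNU6ATAC. A peak was assigned to a gene when its summit lay within 2 kb of a fixed position for that gene on the human build hg19. That rule took 81 of the 354101 peaks that the 9 lists hold on chromosomes 1 to 22 and X. The peaks come from ChIP-nexus, an immunoprecipitation assay that digests DNA up to the protein's edge before sequencing. The cells were HEC-1-B, a human uterine adenocarcinoma line, in 3 forms. Wild-type cells were profiled for ZNF143, for the insulator protein CTCF and for RAD21, a subunit of the cohesin ring. ZNF143 knockout (ZNF143KO) cells were profiled for CTCF and RAD21. CTCF-AID cells, in which CTCF carries an auxin-inducible degron, were profiled for ZNF143 and CTCF without auxin (IAA, 0 h) and after 24 h of IAA, which the protocol gives as 500 µM. Each group is 1 library, so differences between groups have no replicate check and no test. The knockout and the loss of CTCF after auxin were taken from the labels. The labels do not say whether the edited lines are single clones.

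Small nuclear RNA genes share a compact promoter. A distal sequence element well upstream of the start binds ZNF143, known as Staf in the frog, and the octamer factor POU2F1. A proximal element nearer the start binds the complex SNAPc, and a TATA box beside it directs transcription to RNA polymerase III instead of II. By this textbook grouping, RN7SK, RMRP, RPPH1, RNU6-1 and RNU6ATAC are polymerase III genes, and RNU4-2, RNU5A-1, RNU11, RNU12 and RNU4ATAC are polymerase II genes. RN7SK holds the elongation factor P-TEFb in an inactive complex. RPPH1 is the RNA of RNase P, which trims the 5′ end of tRNA precursors, and RMRP is the RNA of the related RNase MRP. RNU6-1, RNU4-2 and RNU5A-1 encode U6, U4 and U5 of the major spliceosome. RNU11, RNU12, RNU4ATAC and RNU6ATAC encode RNAs of the minor spliceosome, which removes a rare class of introns.

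Some of these genes stand back to back with a protein-coding gene and share its upstream DNA. RefSeq names GSTA4 beside RN7SK, CCDC107 beside RMRP, PARP2 beside RPPH1, SIRT4 beside RNU4-2 and POLDIP3 beside RNU12. Other protein-coding genes with a start within 2 kb are ARHGEF39 at RMRP, TAF12 at RNU11 and CLASP1 at RNU4ATAC. Where starts lie this close, a peak cannot be assigned to the small RNA gene rather than to its neighbour. The 250 bases before 3 of these coding starts are printed because they hold the upstream DNA of the small RNA gene, over or beside the ZNF143 peaks described next. They are RefSeq sequences of GRCh38.p14, read 5′ to 3′ toward the coding gene, so each begins nearest to the small RNA gene. Their coordinates belong to that build and not to the peaks, which are on hg19. The PARP2 stretch runs from −26 to 223 bp upstream of the RPPH1 start, so its first bases lie inside RPPH1. Capitals mark letters that match the octamer ATGCAAAT in CCDC107 and PARP2 and the ZNF143 core CCCANNATG in GSTA4. The GSTA4 match lies 144 to 152 bp upstream of RN7SK, and the ZNF143 summits lie 200 to 211 bp upstream. The capitals there do not mark the bases under the summits.
PARP2, upstream of RPPH1, chr14:20343385-20343634, plus strand: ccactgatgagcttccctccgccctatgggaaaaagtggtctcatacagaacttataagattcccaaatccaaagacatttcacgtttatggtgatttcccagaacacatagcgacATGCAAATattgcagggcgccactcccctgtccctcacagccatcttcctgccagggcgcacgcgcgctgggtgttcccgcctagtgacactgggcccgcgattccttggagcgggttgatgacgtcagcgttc
CCDC107, upstream of RMRP, chr9:35658042-35658291, plus strand: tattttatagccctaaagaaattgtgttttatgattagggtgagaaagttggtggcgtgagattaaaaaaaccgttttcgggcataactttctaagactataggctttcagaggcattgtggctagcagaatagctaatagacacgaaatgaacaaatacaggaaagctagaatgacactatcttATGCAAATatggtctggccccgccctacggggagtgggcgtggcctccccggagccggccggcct
GSTA4, upstream of RN7SK, chr6:52995285-52995534, minus strand: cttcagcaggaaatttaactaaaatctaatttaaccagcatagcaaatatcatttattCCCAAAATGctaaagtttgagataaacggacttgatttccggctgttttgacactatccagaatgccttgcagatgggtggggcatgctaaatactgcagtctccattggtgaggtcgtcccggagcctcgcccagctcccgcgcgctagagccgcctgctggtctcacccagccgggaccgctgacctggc

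Wild-type cells had a ZNF143 peak within 2 kb of all 10 genes, 16 peaks in total. For scale, 4.58% of the positions between the first and last summit of each chromosome lay within 2 kb of a wild-type ZNF143 summit. This share is over all sequence and not over promoters, where peaks are denser. In 9 genes a summit lay at most 400 bp from the position used, a distance chosen after the positions were seen. In these 9 genes the strongest such summit lay 77 to 343 bp away, with a median of 212 bp, and RMRP was the exception. The longest of these distances, 343 bp, is that of RNU6-1, whose position may be the lower end of the gene and not its start. RefSeq gives that gene a length of 107 bp, so its distance from the start may be shorter by that much. Over the other 8 genes the distances ran from 77 to 306 bp, with a median of 207 bp. On the strand from general knowledge of the annotation, the summit was upstream of the start in the 8 genes to which a strand was assigned. For RNU6-1 no strand was used, and the summit lay on the side of higher coordinates.

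**Figure D1:**
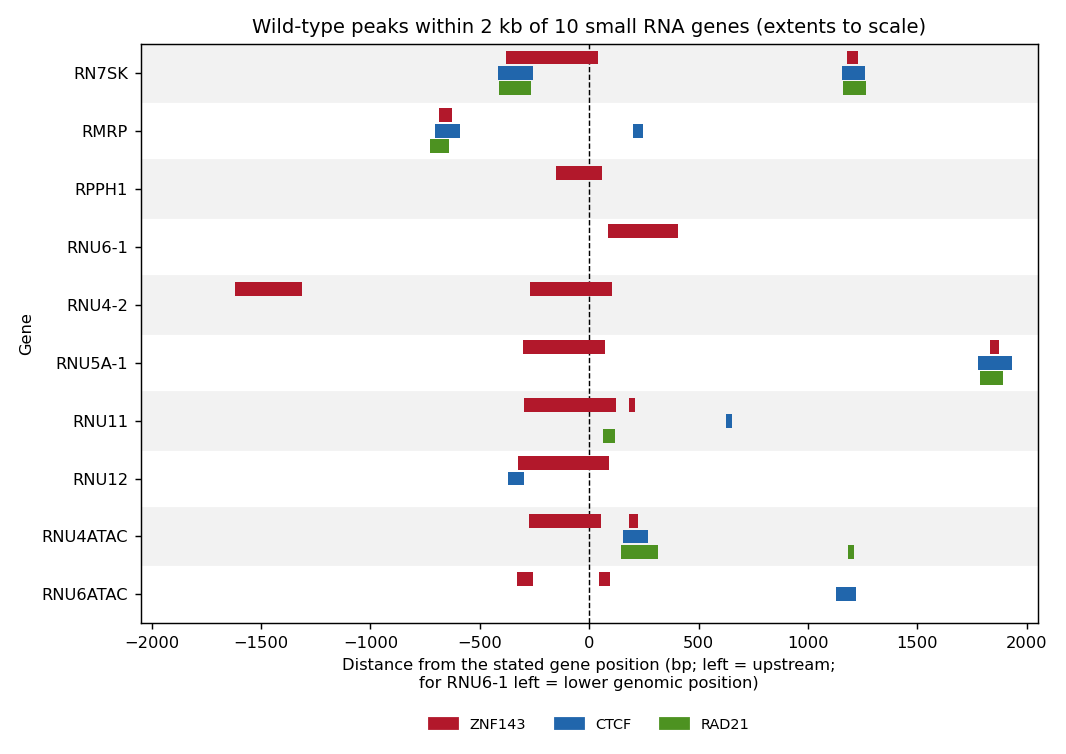
Extents of the wild-type ZNF143, CTCF and RAD21 peaks (bars, to scale) by distance in bp from the position used for each of the 10 genes; left is upstream, except for RNU6-1, where left is the lower genomic position. Broad ZNF143 peaks cover the upstream side of most starts, and narrow ZNF143 bars sit on CTCF and RAD21 bars at RN7SK, RMRP, RNU5A-1 and RNU4ATAC.

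Peaks are described by their signal, the fold enrichment of the summit over local background that the authors deposited. It depends on that background as well as on the reads at the summit. Among the polymerase III genes, RPPH1 had the highest wild-type ZNF143 signal of the 10 genes, 28.8 at chr14:20811511-20811724, with its summit 77 bp upstream. The RN7SK peak at chr6:52860038-52860459 had a signal of 21.3 and its summit 202 bp upstream. The RNU6-1 peak at chr15:68132362-68132681 had a signal of 20.8 and its summit 343 bp on the higher side. RNU6ATAC was weaker, with 13.8 at chr9:137029944-137030016 and a summit 306 bp upstream. A second RNU6ATAC peak of signal 7.26 lay 70 bp downstream. RMRP had 1 wild-type ZNF143 peak, of signal 7.67, 654 bp upstream.

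Signals of the 5 polymerase II genes lay closer together, from 15.0 to 24.5. RNU5A-1 had 24.5 at chr15:65588084-65588459 with its summit 179 bp upstream, and RNU12 had 23.7 at chr22:43010924-43011339 with its summit 228 bp upstream. RNU4ATAC had 23.6 at chr2:122288182-122288510, 196 bp upstream, and RNU11 had 18.5 at chr1:28974815-28975234, 242 bp upstream. The medians, 20.8 over the polymerase III genes and 23.6 over the polymerase II genes, differed by less than the range within either group. RNU4-2 had 2 peaks of nearly equal signal, 15.0 with a summit 212 bp upstream at chr12:120729602-120729978 and 14.7 with a summit 1550 bp upstream. RefSeq places the near-identical gene RNU4-1 within 2 kb of RNU4-2 on that side. U4 and U6 genes have near-identical copies elsewhere, and how reads with several matches were placed is not given in the sources used here, so values over those gene bodies are uncertain.

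Against the rest of the wild-type ZNF143 list, the strongest peak of each gene had a signal above a median of 93.0% of the 36770 peaks. The lowest was RMRP, above 26.1%, and the highest was RPPH1, above 98.4%. Summit counts of the strongest peaks ran from 10 to 54 reads, and 54 is the highest count in the list. At that ceiling were 3 genes, and 6 were within 5 reads of it. At equal counts the signal is set by the local background: RPPH1 and RNU12 both had 54 reads, on backgrounds of 0.907 and 1.32 reads.

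These peaks were also broad. The strongest ZNF143 peaks of the 10 genes had a median width of 352.5 bp in wild type, from 56 bp at RMRP to 422 bp at RN7SK. The whole list had a median width of 66 bp, and the 10% of peaks with the highest signal had a median of 153 bp. In CTCF-AID cells the gene median was 407 bp at 0 h and 380 bp at 24 h, beside 185 and 224.5 bp over the strongest 10% of those lists. RNU6ATAC and RMRP stayed narrow in all 3 libraries, at 46 to 96 bp. At the other 8 genes the upstream peak was 214 to 577 bp wide, and at 7 of them it ran across the start. The wild-type RNU6-1 peak ran from 85 to 404 bp on the higher side of the position used, so it would reach over the start if the start is at the gene's higher end.

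**Figure D2:**
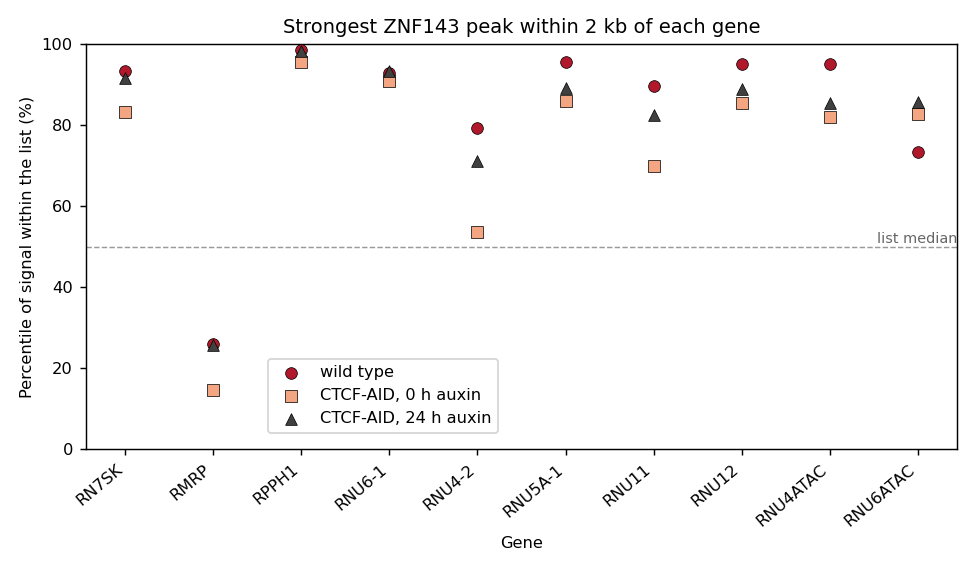
Percentage of each ZNF143 list with a lower signal than the strongest peak within 2 kb of each of the 10 genes, in wild type, at 0 h and at 24 h of auxin (1 library each, no error bars). RMRP sits between 14.7 and 26.1% in all 3 libraries, and the other 9 genes lie above 50%. Lists differ in length, so a difference in rank between them cannot be read as a change in binding. The RMRP peak of wild type is at another site than those of 0 h and 24 h. The RNU4-2 peak of 0 h is the one toward RNU4-1.

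The motifs were searched on both strands of RefSeq promoters, 250 bases before to 50 after each start. The octamer ATGCAAAT was in 1.77% of 35116 promoters and the core CCCANNATG in 4.63%. The first 250 bases were read for GSTA4, CCDC107, PARP2, SIRT4 and POLDIP3. In them the octamer occurred before PARP2, CCDC107 and SIRT4, and the core before GSTA4. No fixed motif matched before POLDIP3, which says only that these letters are absent there. Measured in GRCh38, the PARP2 octamer lay 90 to 97 bp upstream of the RPPH1 start, and ZNF143 summits lay 63 to 86 bp upstream in the 3 libraries. The SIRT4 octamer lay 222 to 229 bp upstream of RNU4-2, with ZNF143 summits at 200 to 215 bp. The GSTA4 core lay 144 to 152 bp upstream of RN7SK, with summits at 200 to 211 bp, so the match was not under the summits. Variants of the fixed letters were not searched.

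RMRP differed from RNU4-2 in that its octamer had no ZNF143 summit beside it. The CCDC107 octamer lay 208 to 215 bp upstream of the RMRP start. The nearest ZNF143 summits were 654 bp upstream in wild type, 334 bp at 0 h and 338 bp at 24 h, with signals of 7.67, 6.52 and 7.06. The wild-type RMRP peak overlapped CTCF and RAD21 peaks. The other searched motifs were TATAA, in 20.4% of promoters, ACTACA in 8.46% and the CTCF core AGGNGGC in 35.9%. TATAA occurred in overlapping matches 26 to 31 bp upstream of RPPH1 and once 27 to 31 bp upstream of RMRP. The bases searched began 86 bp upstream of RN7SK, 36 bp upstream of RNU4-2 and 111 bp upstream of RNU12. A TATA box nearer to those starts could not be seen. The CTCF core occurred 295 to 301 bp upstream of RN7SK, where CTCF peaks lay. A match is a description of the letters and not a measured site.

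The second comparison asked how far CTCF and cohesin accompany ZNF143 at these genes. CTCF and cohesin mark boundaries and anchors of chromatin loops. A wild-type CTCF peak lay within 2 kb of 7 genes, 9 peaks in total, and 5 genes had a RAD21 peak, 7 in total. By position, 6.64% of sequence lay within 2 kb of a wild-type CTCF summit and 6.18% within 2 kb of a RAD21 summit. RPPH1, RNU6-1 and RNU4-2 had neither within 2 kb in any of the 6 CTCF and RAD21 lists. Within 500 bp, 4 genes had a CTCF peak and 3 a RAD21 peak, and with every list held to its 13865 strongest peaks the counts were 2 and 1. The strongest CTCF peaks of the 7 genes stood above a median of 54.3% of their list.

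Of the 16 wild-type ZNF143 peaks near the genes, 6 overlapped a CTCF peak and 6 a RAD21 peak. Over the whole list, 73.1% overlapped CTCF and 72.9% RAD21. When at least 50% of both peaks had to be shared, 0 of the 10 genes had such an overlap with either protein. The overlaps with CTCF were of 2 kinds. At RN7SK, RMRP, RNU5A-1 and RNU4ATAC a narrow ZNF143 peak of low signal had its summit 2 to 5 bp from a CTCF summit. These ZNF143 peaks were 37 to 56 bp wide and the CTCF peaks 106 to 155 bp. Each was too narrow to share 50% of its CTCF peak, so the 0 does not mean that the sites were apart. At RN7SK and RNU12 the broad upstream ZNF143 peak overlapped a CTCF peak in its part farthest upstream. The RN7SK CTCF peak spanned 417 to 258 bp upstream, and the ZNF143 peak began 380 bp upstream. At RNU12 the CTCF peak spanned 371 to 297 bp upstream, and the ZNF143 peak began 326 bp upstream. The RNU11 peak overlapped a RAD21 peak without CTCF.

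The 4 coinciding sites were not at the start. At RN7SK the summits lay 1212 bp (ZNF143), 1210 bp (CTCF) and 1228 bp (RAD21) downstream of the start, with signals of 6.18, 21.96 and 17.8. At RNU5A-1 they lay 1857, 1860 and 1852 bp downstream, with signals of 8.15, 25.0 and 21.01. The RNU5A-1 site had the highest signal of the 9 wild-type CTCF peaks near the genes. At RNU4ATAC they lay 204, 208 and 228 bp downstream, with signals of 5.66, 20.6 and 15.8. At RMRP they lay 654, 659 and 676 bp upstream, with signals of 7.67, 15.6 and 14.1. Across the 4 sites the ZNF143 peaks stood above 5.59 to 31.4% of their list, the CTCF peaks above 54.3 to 90.7% and the RAD21 peaks above 51.2 to 76.1%.

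Where a CTCF peak overlapped a broad ZNF143 peak, the summits were apart. The RN7SK CTCF summit lay 391 bp upstream, 189 bp beyond the ZNF143 summit, with a signal of 14.4, and a RAD21 peak of signal 9.47 lay 377 bp upstream. The RNU12 CTCF summit lay 346 bp upstream, 118 bp beyond the ZNF143 summit, with a signal of 6.05 and no RAD21 peak within 2 kb. RNU11 had weak peaks only, CTCF of signal 5.26 at 632 bp downstream and RAD21 of signal 4.62 at 102 bp downstream, beside a narrow ZNF143 peak of signal 7.35 at 196 bp downstream. RNU6ATAC had a CTCF peak of signal 11.7 at 1155 bp downstream. RMRP had a further CTCF peak of signal 8.45, 223 bp downstream of its start.

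Before auxin, CTCF-AID cells showed how far lines and libraries differ without auxin or knockout. All 16 wild-type ZNF143 peaks near the genes overlapped a 0 h ZNF143 peak, where 73.1% did so over the whole list. With summits within 50 bp, or with at least 50% of both peaks shared, 13 of the 16 did so. The narrow wild-type peaks downstream of RNU11 and RNU4ATAC lay inside broad 0 h peaks whose summits were upstream of the start. All 10 genes had a ZNF143 peak at 0 h, 15 peaks in total, where 4.17% of sequence lay within 2 kb of a summit. The strongest peaks had signals from 6.52 at RMRP to 22.5 at RPPH1, and they ranked above a median of 83.0% of the list. At the 9 genes with a summit within 400 bp, the 0 h summit lay 1 to 17 bp from the wild-type summit. Of the 9 wild-type CTCF peaks near the genes, 5 overlapped a 0 h CTCF peak, a share close to the 55.1% of the whole list. The 0 h CTCF list is shorter than that of wild type, 30374 peaks against 52982, and the ZNF143 lists hold 34531 and 36770. A CTCF peak was listed at 0 h for 4 genes, RN7SK, RMRP, RNU5A-1 and RNU4ATAC. By position, 3.79% of sequence lay within 2 kb of a 0 h CTCF summit.

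The auxin comparison asked which ZNF143 and CTCF peaks at the genes remain once CTCF is degraded. All 10 genes still had a ZNF143 peak at 24 h, 12 peaks in total, where 1.94% of sequence lay within 2 kb of a 24 h ZNF143 summit. Of the 15 peaks of 0 h, 12 overlapped a 24 h peak and 3 did not, and all 12 peaks of 24 h overlapped a 0 h peak. Over the whole 0 h list, 43.2% of ZNF143 peaks were kept. With 1 library per time, the number of reads and the time cannot be told apart. The density of background reads was 13.5 per kb at 0 h and 12.1 per kb at 24 h.

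**Figure D3:**
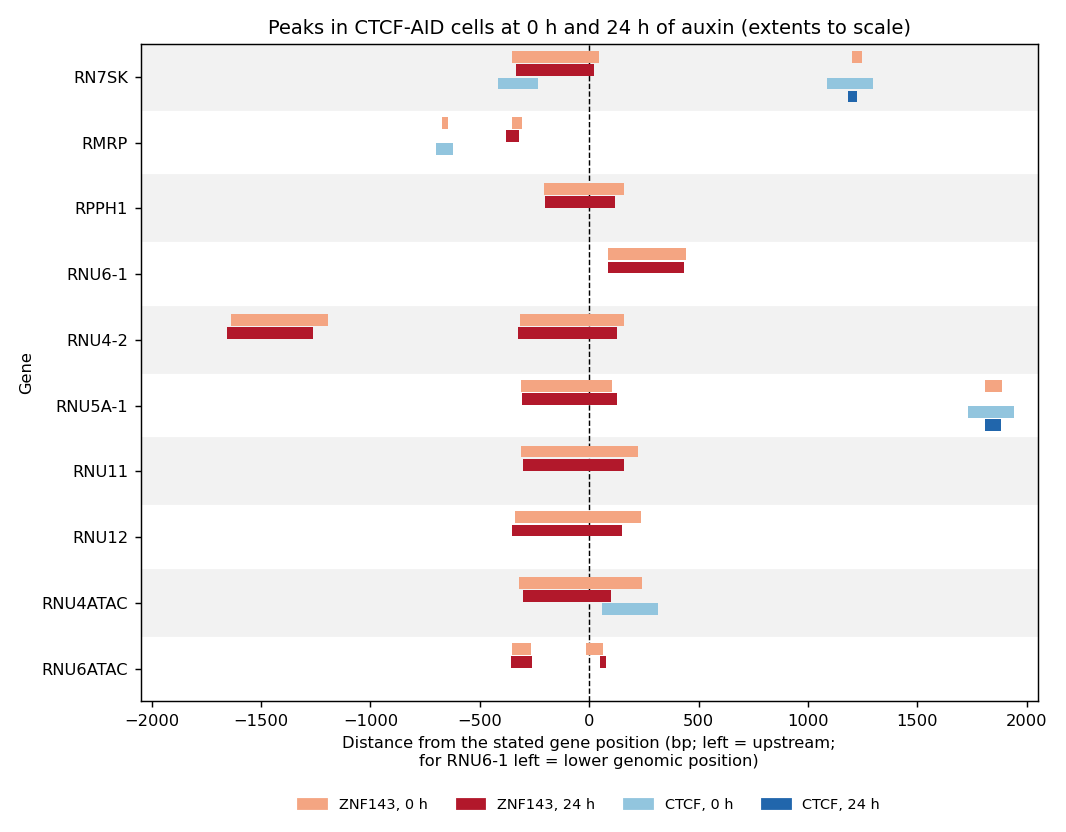
Extents of ZNF143 and CTCF peaks (bars, to scale) in CTCF-AID cells at 0 h and 24 h of auxin, by distance in bp from the position used for each of the 10 genes; left is upstream, except for RNU6-1, where left is the lower genomic position. The upstream ZNF143 bars are present at both times, and the ZNF143 bars on CTCF bars at RN7SK, RMRP and RNU5A-1 are present at 0 h only.

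Upstream peaks were found at both times in the polymerase III genes. RPPH1 had signals of 28.8 in wild type, 22.5 at 0 h and 25.5 at 24 h, with summits 77, 86 and 63 bp upstream. RN7SK had 21.3, 17.1 and 21.5, with summits 202, 211 and 200 bp upstream, and RNU6-1 had 20.8, 19.8 and 22.4. RNU6ATAC had 13.8, 17.0 and 18.3, with summits 306, 296 and 304 bp upstream. The summits of these 4 genes lay within 23 bp of each other in all 3 libraries.

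The polymerase II genes showed the same positions. RNU5A-1 had signals of 24.5, 18.0 and 20.2 in wild type, at 0 h and at 24 h, and RNU12 had 23.7, 17.8 and 20.04. RNU4ATAC had 23.6, 16.8 and 18.2, and RNU11 had 18.5, 13.9 and 16.6. RNU4-2 had 15.0, 10.6 and 12.2 at its own upstream peak and 14.7, 10.8 and 11.6 at the peak toward RNU4-1. Over the 9 genes the summit of 24 h lay 7 to 23 bp from that of 0 h and 1 to 14 bp from that of wild type. In RN7SK, RNU11, RNU12 and RNU6ATAC the 24 h summit lay 2 bp from the wild-type summit. Signals divide by local background, so their size is not compared between libraries. The highest count in the ZNF143 list was 62 reads at 0 h and 58 at 24 h. Strongest peaks within 5 reads of it were those of 7 genes at 0 h and 6 at 24 h. A change in binding at those genes might therefore not show in the counts.

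The 3 ZNF143 peaks of 0 h with no 24 h peak were those on the CTCF sites of RN7SK, RMRP and RNU5A-1. They had 0 h signals of 7.89, 6.06 and 8.68, with summits 1215 bp downstream, 661 bp upstream and 1857 bp downstream. At RNU4ATAC the 0 h ZNF143 peak was 558 bp wide and reached 238 bp downstream of the start, over the CTCF summit at 223 bp. The 24 h peak there was 402 bp wide and reached 99 bp downstream, so it was kept by overlap but no longer covered that CTCF summit.

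Split by CTCF, the 10 ZNF143 peaks of 0 h near the genes without a 0 h CTCF peak were all kept at 24 h. Over the whole list, 57.6% of such peaks were kept. The 10 peaks stood above 9.24 to 95.6% of the 0 h list, and only those of RPPH1 and RNU6-1 were in its strongest 10%. In that strongest 10%, 2159 of 2160 peaks without CTCF were kept. The 5 that overlapped CTCF at 0 h included 2 that were kept, the upstream peaks of RN7SK and RNU4ATAC, beside 31.9% over the whole list.

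Counts at the missing sites were set against the lowest counts listed in the 24 h library. The RN7SK and RNU5A-1 sites each had a summit count of 28 reads at 0 h (Poisson 95% interval 18.6 to 40.5, counting error only). At 24 h the lowest count listed on a local background like that of the gene's upstream peak (within 10%) was 11 at RN7SK and 10 at RNU5A-1. Both lie below the 0 h intervals, which were not scaled to the reads of the 24 h library. Between 0 h and 24 h the background of the upstream peak went from 2.68 to 1.75 reads at RN7SK. At RNU5A-1 it went from 2.34 to 1.53 reads. With 1 library per time, loss of these peaks and a failure to list them cannot be told apart. The RMRP site had 12 reads at 0 h (6.20 to 20.96), and the lowest listed count on its background was 8, inside the interval. At RMRP the missing peak is therefore not distinguishable from the limit of the 24 h library.

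CTCF near the genes was listed at fewer sites at 24 h. Of the 5 CTCF peaks of 0 h, 2 overlapped a 24 h peak, where 44.4% did so over the whole list. By position, 1.77% of sequence lay within 2 kb of a 24 h CTCF summit. The RN7SK downstream site went from a signal of 18.5 and a count of 56 reads to 10.9 and 13 reads. The RNU5A-1 downstream site went from 25.1 and 62 reads to 5.81 and 6 reads, with a −log10 q of 4.89, so at a threshold of 5 only 1 gene had a 24 h CTCF peak. Neither lay within 1 kb of the start, and 0 of the 5 were kept when at least 50% of both peaks had to be shared. The upstream RN7SK peak and the peaks at RMRP and RNU4ATAC, with 0 h signals of 10.0, 8.09 and 17.3, had no 24 h peak. Background density fell from 12.8 to 3.89 reads per kb between these CTCF libraries, and its part in the lower counts was not tested. At RN7SK and RNU5A-1 a CTCF peak was therefore still listed at 24 h where the ZNF143 peak was not.

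The knockout comparison asked whether CTCF and RAD21 at the genes differ without ZNF143. In ZNF143KO cells 7 genes had a CTCF peak and 5 a RAD21 peak, the same numbers as in wild type. Within 500 bp these were 3 and 2 genes, and in the 13865 strongest peaks 1 and 1. The RAD21 genes were not the same: RNU11 had a peak only in wild type and RNU6ATAC only in the knockout. At a −log10 q of at least 5 in both genotypes, 6 genes had a CTCF peak in wild type and 7 in the knockout. For RAD21 these were 4 and 5 genes. By position, 7.94% of sequence lay within 2 kb of a knockout CTCF summit and 7.13% within 2 kb of a knockout RAD21 summit. Of the 9 wild-type CTCF peaks, 8 overlapped a knockout peak, where 94.0% did so over the whole list. Of the 7 wild-type RAD21 peaks, 5 did, where 92.3% did so over the whole list. The knockout lists start at a −log10 q of 5.00 and the wild-type lists near 3, and the knockout libraries had more background reads, 18.9 against 8.64 per kb for CTCF and 26.15 against 7.82 for RAD21.

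**Figure D4:**
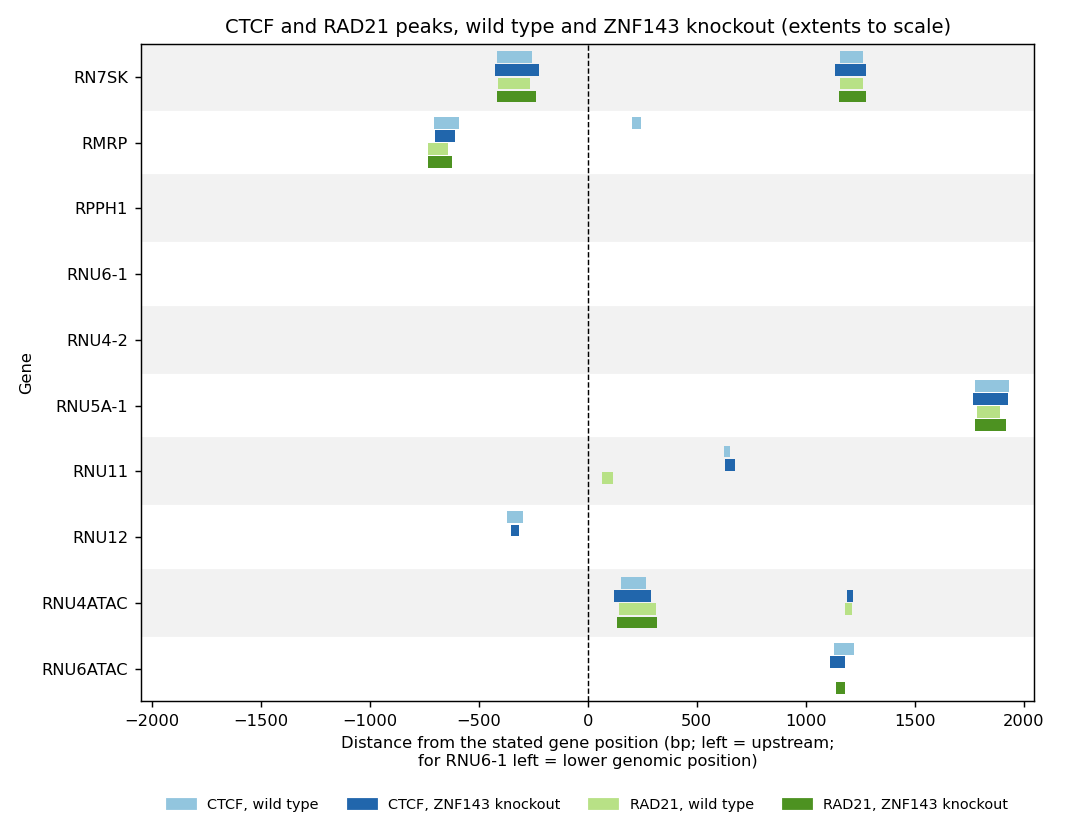
Extents of CTCF and RAD21 peaks (bars, to scale) in wild-type and ZNF143 knockout cells, by distance in bp from the position used for each of the 10 genes; left is upstream, except for RNU6-1, where left is the lower genomic position. Bars of both genotypes coincide at RN7SK, RMRP, RNU5A-1 and RNU4ATAC, and RPPH1, RNU6-1 and RNU4-2 have none.

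At the 4 sites where ZNF143, CTCF and RAD21 coincided in wild type, the knockout had both CTCF and RAD21 peaks. CTCF signals in wild type and knockout were 21.96 and 16.3 at RN7SK, 15.6 and 19.3 at RMRP, 25.0 and 23.4 at RNU5A-1, and 20.6 and 19.7 at RNU4ATAC. RAD21 signals were 17.8 and 13.7 at RN7SK, 14.1 and 13.2 at RMRP, 21.01 and 19.5 at RNU5A-1, and 15.8 and 15.3 at RNU4ATAC. From the CTCF summit to that of RAD21 the distance in wild type and knockout was 18 and 11 bp at RN7SK, 17 and 0 bp at RMRP, 8 and 3 bp at RNU5A-1, and 20 and 14 bp at RNU4ATAC. It was shorter in the knockout at all 4 sites. Over the 39236 sites with these summits within 100 bp of each other in both genotypes, it was shorter in the knockout at 53.4%, with medians of 15 bp in wild type and 12 bp in the knockout. CTCF summits themselves lay 2 to 18 bp apart between the genotypes at these sites.

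Upstream of RN7SK, over the part of the wild-type ZNF143 peak farthest from the start, a CTCF peak was listed in both genotypes. Its signals in the 2 genotypes were 14.4 and 13.9, and its summit lay 391 and 321 bp upstream. In CTCF-AID cells at 0 h the summit lay 312 bp upstream. RAD21 there had signals of 9.47 and 13.8, with summits 377 and 328 bp upstream. The RNU12 CTCF peak was kept as well, with signals of 6.05 and 9.58 and summits 346 and 334 bp upstream.

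Taking each protein by itself, the peaks found in 1 genotype had signals of 4.62 to 8.45. The CTCF peak inside RMRP, of signal 8.45 and −log10 q 10.7, had no knockout peak, and it had no peak in CTCF-AID cells at 0 h either. The RAD21 peaks of RNU11, with a −log10 q of 3.28, and of RNU4ATAC at 1194 bp downstream, with 8.22, had none in the knockout. The first lies below the threshold of the knockout list. In turn, RNU4ATAC had a knockout CTCF peak of signal 7.38 at 1207 bp downstream with no wild-type CTCF peak. That peak overlapped the wild-type RAD21 peak at 1194 bp, so a weak peak was listed at this site in both genotypes. RNU6ATAC had a knockout RAD21 peak of signal 7.14 at 1174 bp downstream with no wild-type RAD21 peak. This peak overlapped a CTCF peak listed in both genotypes, of signal 11.7 in wild type and 12.5 in the knockout.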

How the data were processed

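The authors deposited 1 narrow-peak list per library. The submitters' processing notes name, without role or order, cutadapt 2.10, Bowtie2 2.3.5.1, SAMtools 1.12, MACS2 2.2.7.1 and deepTools, and the builds GRCh37 and hg19. Settings, filters and pooling are not given in the sources used here. The deposited values are the signal, a ratio read as fold enrichment over local background, the −log10 p, the −log10 q, and a score equal to 10 times the −log10 q cut to a whole number. Lists start near a −log10 q of 3, or at 5.00 in both knockout lists.

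Peaks on chromosomes 1 to 22 and X were used. The members and lists were chosen with earlier results of these data known. All 10 genes are named, and a peak was counted for a gene when its summit lay within 2 kb. Not every counted peak is described singly. Kept or shared means an overlap of at least 1 bp. Summit counts and backgrounds were solved from the deposited ratio and −log10 p under a Poisson model, with 1 added to count and background. Whole counts gave the deposited −log10 p within 0.002 for 100% of peaks. The most frequent background divided by the shortest peak length gave the reads per kb of background. No list has a count above 2 times its shortest peak length. Symbols of all 10 genes matched RefSeq's GRCh38.p14 table, used for names and neighbours. Strands came from general knowledge, and the list of other small RNA genes was not used, as no annotation of hg19 was at hand. Tables were handled with pandas 2.3.3 and numpy 2.4.6 in Python 3.11.15, intervals computed with scipy 1.17.1 and figures drawn with matplotlib 3.10.9. Code was tested on simulated data, in which 0 of 4966 counts were missed.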

Additional observations from a re-analysis of the deposited data

How the results depend on the processing

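No paired analysis was possible because each group has 1 library. No replicate could be left out for the same reason. The main results have 89 values under other settings, of which 66 stayed near their reported value (counts within 1.5 times) and 23 moved. Counts of genes with a ZNF143 peak were 8 to 10 of 10 under every alternative run for the 3 ZNF143 lists. With a window of 500 bp, 4 genes had a wild-type CTCF peak, 3 a knockout CTCF peak, 2 a 0 h CTCF peak, 0 a 24 h CTCF peak, 3 a wild-type RAD21 peak and 2 a knockout RAD21 peak. With 1 kb, 0 genes had a 24 h CTCF peak and 3 a knockout RAD21 peak. These windows hold fewer peaks by construction. With all lists at the size of the shortest, the counts were 2 for wild-type CTCF, 1 for knockout CTCF, 1 for wild-type RAD21 and 1 for knockout RAD21. At a −log10 q of at least 5 and of at least 10, 1 gene had a 24 h CTCF peak. With a reciprocal overlap of 50%, 0 genes had a ZNF143 peak at a CTCF peak and 0 at a RAD21 peak in wild type. Under the same rule 0 CTCF peaks were kept at 24 h, an alternative that was added after seeing the data. With the peak nearest to the position in place of the strongest, the median ZNF143 distance was 199 bp in wild type, 213 bp at 0 h and 200 bp at 24 h, against 220, 222.5 and 215 bp. Ranked by −log10 q, the genes' peaks stood above a median of 94.6% in wild type, 94.2% at 0 h and 90.7% at 24 h, against 93.0, 83.0 and 87.4% by signal. The cause of these last shifts was not tested. For single peaks, 10 of 60 values moved with the nearest peak. The 24 h CTCF library had the lowest background of the 9, 3.89 reads per kb.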

Other observations

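Between 2 and 5 kb from the positions used, RNU6-1 had a further CTCF and cohesin site. It lay 3344 bp to the side of lower coordinates, away from its ZNF143 peak, with a CTCF signal of 20.3 in wild type and 17.2 in the knockout. RAD21 summits lay 3376 bp away with a signal of 17.3 in wild type and 3382 bp away with 14.0 in the knockout. A ZNF143 peak of signal 6.75 lay at that site, 3367 bp away, in CTCF-AID cells at 0 h, and neither wild type nor 24 h had one within 5 kb on that side. CTCF there had a signal of 21.6 at 0 h and 6.06 at 24 h. RNU6ATAC had weak CTCF peaks 4379 bp away in wild type and 4371 bp away in the knockout, with signals of 6.34 and 8.80. RNU12 had a wild-type RAD21 peak of signal 5.41 at 2240 bp. RPPH1 and RNU4-2 had no CTCF or RAD21 peak within 5 kb in any list.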
